A study of Mus musculus with 1646 samples.

Results

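Pericytes are the mural cells that sit on capillaries and small venules, embedded in the basement membrane that they share with the endothelium. Here they are the cells that the study's own clustering of mouse colon mesenchyme placed in cluster 4, which is written in the deposited annotation of each cell, and they make up 8.63% of the 1646 cells, 33, 49 and 47 of them on the 3 plates that hold most and 13 on the other 6. Vascular smooth muscle cells (SMC) of arterioles and larger vessels belong to the same mural lineage, and pericytes and SMC are usually told apart by how much contractile protein and how much ATP-sensitive potassium channel they make. Pericytes receive PDGF-B from the endothelium through the receptor PDGFRβ and Notch ligands through NOTCH3, and in turn deposit matrix around the vessel and tune its calibre.

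The cells came from the colon of adult male mice aged 10 to 20 weeks, were sorted one per well as CD31-negative events positive for a mesenchymal reporter or for PDGFRα or PDGFRβ antibody staining, and were sequenced as full-length cDNA by the SmartSeq2 protocol, which has no molecular identifiers. Each cell carries the name of 1 of 4 reporter lines. PdgfrbGFP is a transgene with enhanced GFP under Pdgfrb, Cspg4dsRED a transgene with DsRed under Cspg4 (the gene of NG2), Acta2GFP a transgene with GFP under the smooth muscle actin gene Acta2, and PdgfraGFP a knock-in that puts nuclear GFP under Pdgfra. None of the lines carries a disease allele or received a treatment, and colon tissue of Acta2GFP mice was additionally digested with elastase. The study kept cells only if they expressed Pdgfra or Pdgfrb, so pericytes without either receptor would not be in the table, and each reporter or stain limits which pericytes could be caught. The labels name no mouse, and plates of a line may share a mouse, so the adjusted p-values below measure the spread between reporter lines as pooled here, and the permutation tests of depth the spread between plates. The comparison classes were vascular SMC (cluster 3, 8.57% of the cells), interstitial SMC of the gut wall (cluster 8, 56 cells) and fibroblasts (clusters 1, 2, 5, 6 and 7, 1307 cells).

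Cells labelled cluster 4 were found on all 9 plates but were common on 3 of them. They made up 33 of 91 cells on plate colon_516s (Cspg4dsRED), which is 36.3% with an exact Clopper-Pearson 95% interval of 26.4% to 47%. On plate colon_685s (PdgfrbGFP) they were 49 cells, 36% (28% to 44.7%), and on plate colon_686s (PdgfrbGFP) 47 cells, 40.5% (31.5% to 50%). The other 6 plates held 1 to 5 pericytes each, 0.325% to 1.94% of their cells, and those included 2 further plates of PdgfrbGFP, where 3 cells (1.2%) and 5 cells (1.94%) were pericytes. The share of pericytes therefore differed more between plates of the same line than between colon_516s and colon_685s of different lines. What the sort gates of those plates were is not given in the sources used here, so these shares describe what was sorted and not the tissue.

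Depth differed between plates and between the mural classes. The median pericyte had 103665 counts on colon_516s, 196997 on colon_685s and 449355 on colon_686s, against 150636, 297463 and 753146 for the median vascular SMC of the same plates. On the log2 scale pericytes were shallower by a mean difference of -0.63 ± 0.11 (SD, n = 3 plates). Spike-in RNA, added in equal amount to each well, took 3.27%, 3.01% and 1.97% of the counts of the median pericyte and 1.64%, 1.5% and 1.12% of those of the median vascular SMC, a log2 ratio of 0.94 ± 0.11. After every cell was thinned to 50000 counts, the median pericyte showed fewer genes than the median vascular SMC of its plate, by -442 ± 181.5. Each of these 3 differences had the same sign on 3 of 3 plates, and the exact two-sided permutation test gave p = 0.25 for each, the smallest value that 3 plates allow. Levels below are therefore given as counts of a gene per 500000 counts on genes of that cell, averaged over cells, and they are not compared between genes because they are not divided by transcript length.

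**Figure D1:**
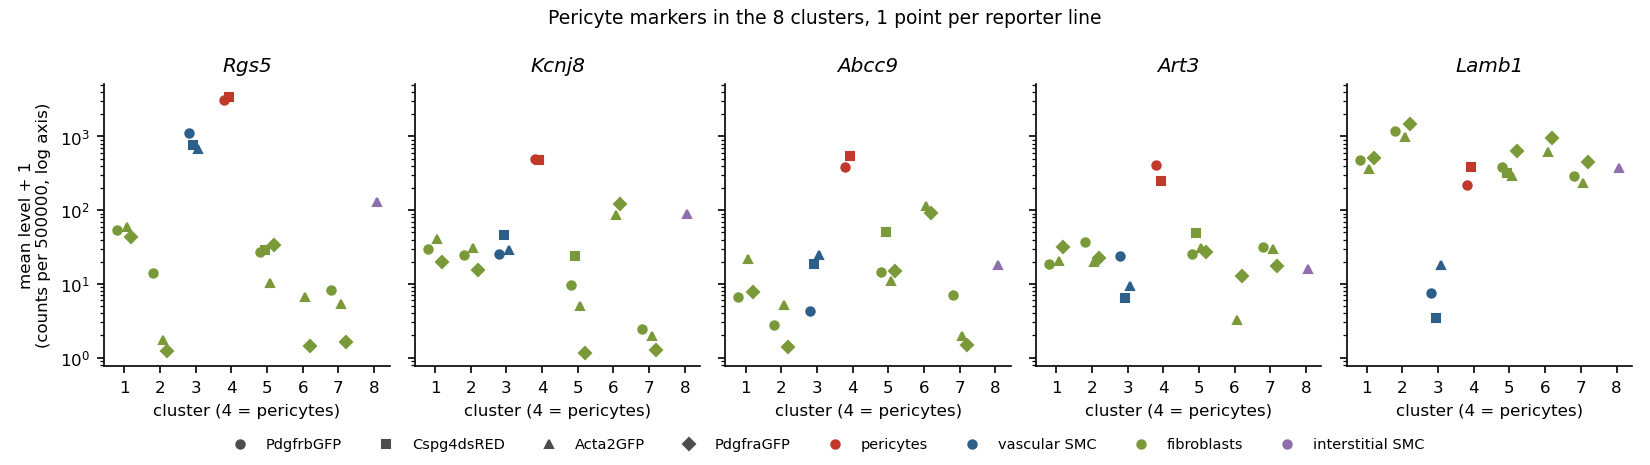
Mean level + 1 (counts per 500000) of Rgs5, Kcnj8, Abcc9, Art3 and Lamb1 in the 8 clusters, a point for each reporter line with at least 10 cells of the cluster, on a log axis. Rgs5, Kcnj8, Abcc9 and Art3 were highest in cluster 4, the pericytes, whereas Lamb1 lies higher in cluster 2 (1205 counts) and cluster 6 (789 counts) than in cluster 4 (300.7 counts).

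The label was set beside the levels of Rgs5, Kcnj8, Abcc9, Art3 and Lamb1. Rgs5 (ENSMUSG00000026678, chr1:169655501-169695813), which encodes a brake on G protein signalling, had mean levels of 3398, 3163 and 3089 in the pericytes of colon_516s, colon_685s and colon_686s, 769, 1442 and 824 in vascular SMC and 30.5, 62.8 and 11.8 in fibroblasts. The lowest pericyte plate was thus above the highest SMC plate, and Rgs5 was called against both classes, with log2 fold changes of 1.77 ± 0.32 (SE, adjusted p = 0.0403) against vascular SMC and 6.98 (adjusted p = 0.000304) against fibroblasts. Rgs5 was not absent from SMC, since its mean over lines was 858 ± 231.9 (SD, n = 3 lines) in cluster 3 and 3262 ± 193.2 (n = 2 lines) in cluster 4. The genes of these clusters were used to draw the clusters, so each test here sets a difference against the spread between lines and is no independent test of the classes.

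Kcnj8 (chr6:142564837-142571614) and Abcc9 (chr6:142587862-142702315) encode the pore Kir6.1 and the sulfonylurea receptor SUR2, the subunits of the vascular ATP-sensitive potassium channel, whose opening relaxes mural cells. Kcnj8 levels were 484, 490 and 525 in pericytes on the 3 plates, 44.5, 32.9 and 9.15 in vascular SMC and 10.7, 29.2 and 21 in fibroblasts. Abcc9 levels were 545, 275.9 and 430 in pericytes, 17.7, 3.80 and 1.56 in vascular SMC and 28.6, 9.97 and 3.4 in fibroblasts. The pericyte plates did not overlap with the others for either subunit, and against vascular SMC the log2 fold changes were 3.47 ± 0.53 (adjusted p = 0.0247) for Kcnj8 and 4.83 (adjusted p = 0.0328) for Abcc9. The genes are neighbours on the minus strand of chromosome 6, 16247 bases apart in GRCm38. Within plates the levels of Kcnj8 and Abcc9 moved together from cell to cell, with Spearman's rho of 0.456 (33 pericytes), 0.503 (49) and 0.315 (47), as a description of cells that share a plate. Kcnj8 also moved with Lamb1 (0.276, 0.376 and 0.406), and rho over all 10 marker pairs and 3 plates ranged from -0.143 to 0.503. The subunits were not confined to pericytes, as the fibroblasts of cluster 6 had means over lines of 103.1 ± 25.4 (Kcnj8) and 101.4 ± 16 (Abcc9), against 489 ± 7.32 and 463.7 ± 114.3 in pericytes.

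Art3 (chr5:92331827-92414628), an ADP-ribosyltransferase family member, had 249.2, 365.2 and 471.4 counts in pericytes against 5.38, 31.7 and 16.5 in vascular SMC and 25, 34.7 and 20.1 in fibroblasts. Its log2 fold changes were 4.54 (adjusted p = 0.0275) and 3.6 (adjusted p = 0.00244). Lamb1 (chr12:31265234-31329644), the laminin β1 chain, separated pericytes from vascular SMC, with 380, 252.03 and 196.8 counts against 2.5, 7.11 and 1.66 and a log2 fold change of 5.42 (adjusted p = 0.0115). It did not separate them from other mesenchyme. Fibroblasts of the same plates had 421.9, 418.7 and 348.8 counts of Lamb1 (log2 fold change -0.94, adjusted p = 0.202), and the interstitial SMC of Acta2GFP had 376.97.

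Cell by cell the markers were less uniform than their means. At least 1 count of Rgs5 was seen in 98.6% of pericytes, of Kcnj8 in 83.1%, of Abcc9 in 85.9%, of Art3 in 91.5% and of Lamb1 in 85.9%, whereas at least 100 counts were seen in 89.4%, 46.5%, 42.3%, 50.7% and 33.1%. With 100 counts as the limit, 96.5% of pericytes had at least 1 of the 5 markers, 71.8% at least 2 and 50.7% at least 3. Among vascular SMC the same shares were 73%, 9.22% and 0.709%, and among fibroblasts 65.3%, 9.49% and 1.45%. Having at least 2 markers was thus far more frequent in pericytes than in the other classes. The markers were chosen with earlier results of these data known, and the clusters were drawn from the same counts. This difference therefore describes the class and is no check of the label. Having any 1 of the 5 separated the classes less, since at least 100 counts of Rgs5 were seen in 70.9% of vascular SMC, but Kcnj8, Abcc9 and Art3 reached 100 counts in only 6.38%, 1.42% and 4.96% of vascular SMC. Over the 10 marker pairs and 3 plates, rho between markers had a median of 0.221 and ranged from -0.143 to 0.503.

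The 2 pericytes of the PdgfraGFP line (plates colon_439s and colon_1075s) went against the label for some of the markers. Both had 0 counts of Rgs5, Kcnj8 and Abcc9, and Lamb1 levels of 859 and 800. The 3 pericytes of plate colon_073s and the 5 of colon_075s, both of PdgfrbGFP, all had Rgs5, at 1332 to 4552. Pericytes of the Acta2GFP line, 2 on colon_513s and 1 on colon_682s, had Rgs5 levels of 385.3, 2383 and 3109. None of the PdgfraGFP or Acta2GFP pericytes entered the tests, which used all pericytes of PdgfrbGFP (49, 47, 5 and 3 on its 4 plates) and the 33 of Cspg4dsRED.

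Against vascular SMC of 3 lines, 41 of 13746 genes tested were higher in pericytes (0.298%) and 66 were lower (0.48%) at an adjusted p under 0.05. All of these genes kept their direction on each of the 3 plates, and the median log2 fold change over all genes tested was -0.03. These shares and this median are the background of each list count against vascular SMC below. With the reporter line as a block 0.407% of the genes tested were higher and 0.771% lower, and they included 83 of the genes called without the block (77.6%). The counts lean on the Acta2GFP line, which enters on the SMC side, and without it 44 genes were called, 39 of which (36.4% of the genes called with it) were called with all lines.

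Most genes of the surface proteins by which mural cells are usually recognised did not pass this test, which set 2 pericyte lines against 3. Levels of Pdgfrb and Notch3 were still higher in pericytes on each plate. Pdgfrb, the receptor of PDGF-B, had 1132, 1192 and 988 counts in pericytes and 396.04, 535 and 456.5 in vascular SMC, with no overlap of plates, and its log2 fold change of 1.28 ± 0.37 had an adjusted p of 0.189. Notch3 had 900, 500 and 433.97 counts against 390, 334.8 and 284.8 (1.25, adjusted p = 0.339). Of the list of 20 mural surface and pericyte genes, 1 passed the test as higher and 0 as lower. Of the 20, 16 had a positive and 4 a negative log2 fold change, with a median of 1.13. The member that passed was Steap4, a metalloreductase, at 141.4, 202.8 and 474.5 counts in pericytes and 2.19, 1.07 and 2.34 in vascular SMC (7.65 ± 0.67, adjusted p = 0.00132). Vtn, which encodes vitronectin, had 357.8, 535 and 613 counts against 44.5, 106.7 and 66.9, and its log2 fold change of 3.37 had an adjusted p of 0.193, and 0.0125 with the line as a block. Rgs4 lay the other way from Rgs5, at 536, 397.3 and 495 counts against 1154, 1239 and 906 (-1.18, adjusted p = 0.240, and 0.0425 with the block).

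Contractile genes differed widely in how far pericytes lay from vascular SMC. Of 24 genes on the contractile list 5 were lower and 0 higher, with a median log2 fold change of -1.74, and 23 of the 24 had a negative value. Cnn1, encoding calponin, was near its floor in pericytes with 1.61, 7.63 and 7.72 counts against 236.9, 314.3 and 230 in vascular SMC (-6.57 ± 0.77, adjusted p = 0.00756). Pln, encoding phospholamban, the regulator of the calcium pump of the sarcoplasmic reticulum, had 3.38, 14.8 and 5.60 counts against 432.4, 572 and 519 (-7.20 ± 0.57, adjusted p = 0.00132). These genes were nearly off in pericytes on each plate. Myh11, the smooth muscle myosin heavy chain, was lower but plainly present, at 310.7, 394.03 and 258.5 counts against 2144, 1895 and 1316 (-2.65 ± 0.43, adjusted p = 0.0299). Mylk, the kinase that switches on smooth muscle myosin, had 343.8, 364.3 and 280 counts against 1503, 1496 and 1109 (-2.07 ± 0.39, adjusted p = 0.0450), and Dstn, which severs actin filaments, had 145.2, 253.01 and 282.4 against 1143, 1143 and 973 (-2.32, adjusted p = 0.0299).

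Acta2 itself did not pass. Pericytes had 1323, 1076 and 507 counts of Acta2 on colon_516s, colon_685s and colon_686s, and vascular SMC had 4092, 3311 and 1412. The pericytes were lower than the SMC of their own plate on each plate, but both classes were lowest on colon_686s, and the log2 fold change of -1.56 ± 0.50 had an adjusted p of 0.244 without and 0.00546 with the line as a block. Tagln, encoding the actin-binding protein SM22, gave 509, 358.1 and 269.4 counts against 1402, 1150.3 and 841 (-1.53, adjusted p = 0.203, and 0.0156 with the block).

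**Figure D2:**
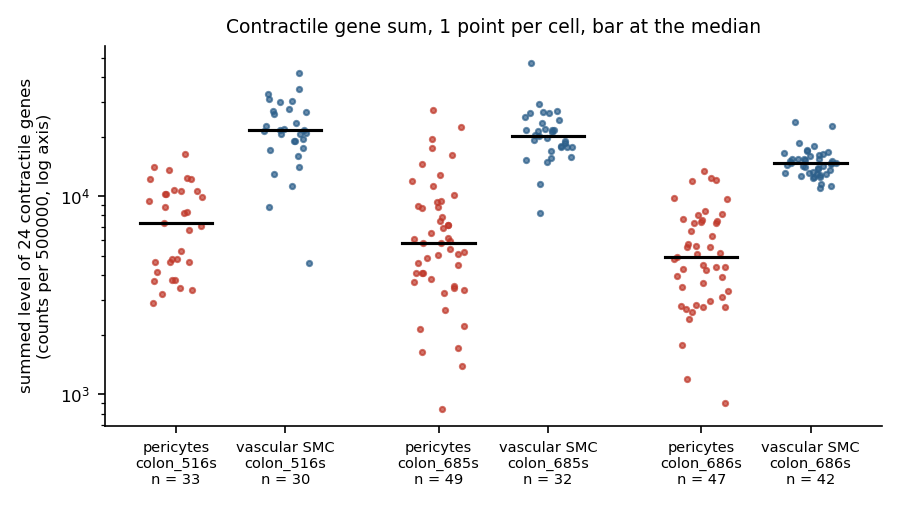
Summed level of the 24 contractile genes in each cell (counts per 500000, log axis) for pericytes and vascular SMC of plates colon_516s, colon_685s and colon_686s, with the median of each group. The medians of pericytes are 7327, 5782 and 4912 and those of vascular SMC 21576, 20234 and 14644, and the ranges of the groups overlap on each plate.

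Summed over the 24 genes, the median vascular SMC had 2.94, 3.50 and 2.98 times the level of the median pericyte on colon_516s, colon_685s and colon_686s, and 3.52, 7.61 and 6.33 times with the 7 vascular SMC markers alone. The plot of the contractile sum by cell shows that the distributions met: 44 pericytes (34.1%) lay above the lowest vascular SMC of their plate, 25 of 33 on colon_516s, 15 of 49 on colon_685s and 4 of 47 on colon_686s, and 2 lay above the median SMC. Among pericytes of a plate, Notch3 was higher in cells with a higher contractile sum, with rho of 0.411, 0.558 and 0.262, and Lamb1 was lower, with rho of -0.204, -0.373 and -0.383. Art3 also had a negative rho on each plate (-0.158, -0.424 and -0.263). Kcnj8 and Abcc9 had values of -0.535 and -0.515 on colon_516s, 0.0453 and 0.0811 on colon_685s, and -0.172 and -0.0457 on colon_686s. These correlations describe 33, 49 and 47 cells that share a plate and are not adjusted for depth, whose own rho with the contractile sum was 0.0989, -0.0633 and -0.141.

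Beyond the list, further genes had large differences on the SMC side, and they were named by size of change and not tested as a theme. Asb2, a muscle ubiquitin ligase subunit, had 0.8292, 4.06 and 2.86 counts in pericytes against 199.5, 267.6 and 381.9 in vascular SMC (-7.70 ± 0.73, adjusted p = 0.00157). Ldb3, a protein of the Z-disc, had 1.83, 5.55 and 0.648 counts against 171.5, 100.1 and 110.4 (-6.63 ± 0.67, adjusted p = 0.00264). Sorbs2, an adaptor at actin anchoring sites, was at 5.02, 17 and 35 against 972, 454.1 and 638 (-6.11). Susd5, Adamtsl1 and the sarcoglycan gene Sgca were also lower, with log2 fold changes of -7.47, -5.98 and -5.61. All of these stood far below the SMC level on each of the 3 plates. Ppp1r12a, the targeting subunit of myosin phosphatase, differed less, at 86.4, 111.7 and 116.8 counts against 443.6, 385.9 and 408.9 (-2.31, adjusted p = 0.0385).

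The 250 bases upstream of the gene start were available from RefSeq for 46 of the 66 genes that were lower in pericytes than in vascular SMC and for 34 of the 41 that were higher. The CArG box, the element bound by serum response factor in many muscle genes, was searched for on both strands, together with the RBPJ core TGGGAA, the TEAD core CATTCC, the MEF2 box, the EBF core CCCNNGGG and TATAAA. A CArG box lay upstream of 5 of the 46 lower genes (10.9%; Asb2, Ldb3, Filip1, Fbxl22 and Zfp36) and of 1 of the 34 higher genes (Lama2), against 1.49% of the 9684 tested genes with a sequence. The RBPJ core was in 23.9% of the lower genes and 23.6% of all, the TEAD core in 15.2% and 12.8%. The MEF2 box was in 4.35% (2 of 46 genes) and 0.516%, the EBF core in 28.3% and 18.8%, and TATAAA in 4.35% and 7.85%. In the 34 higher genes the RBPJ core was in 29.4%, the TEAD core in 11.8%, the MEF2 box in 0%, the EBF core in 14.7% and TATAAA in 11.8%. These searches were chosen after the values were seen and carry no test, and a match is a run of letters, not a bound site. The stretches before the RefSeq start of Asb2 (chr12:103356002-103356251) and Lama2 (chr10:27616943-27617192) are shown as a lower and a higher gene that hold a CArG box, in capitals, whose first base lies 64 and 39 bases before the start, and that of Kcnj8 (chr6:142571615-142571864) as a pericyte gene without such a box. All are GRCm38.p6, minus strand, 5′ to 3′, and no annotated exon overlaps them. The GENCODE gene of Lama2 starts further upstream, at 27619758, so the stretch shown lies within that gene.
Asb2: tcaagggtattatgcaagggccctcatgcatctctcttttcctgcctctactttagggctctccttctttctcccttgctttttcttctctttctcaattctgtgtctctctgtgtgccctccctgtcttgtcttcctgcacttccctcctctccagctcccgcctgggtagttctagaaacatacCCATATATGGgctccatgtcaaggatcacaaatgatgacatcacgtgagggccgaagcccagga
Lama2: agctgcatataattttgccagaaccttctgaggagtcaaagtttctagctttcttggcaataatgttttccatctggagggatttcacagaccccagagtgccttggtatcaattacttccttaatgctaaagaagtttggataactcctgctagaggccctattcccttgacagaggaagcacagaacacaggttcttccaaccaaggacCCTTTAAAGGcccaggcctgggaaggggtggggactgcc
Kcnj8: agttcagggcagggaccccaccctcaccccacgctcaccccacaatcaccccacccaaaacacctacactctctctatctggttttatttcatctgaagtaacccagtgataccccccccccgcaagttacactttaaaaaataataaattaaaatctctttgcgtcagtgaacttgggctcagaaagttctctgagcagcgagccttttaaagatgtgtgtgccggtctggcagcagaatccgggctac

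Ion channels split by direction. Of the 23 channel genes 2 were higher (Kcnj8 and Abcc9) and 4 lower in pericytes, with a median log2 fold change of -1.44. The lower ones were P2rx1, the ATP-gated cation channel of arterial muscle (2.13, 16.6 and 3.68 counts against 319.7, 318.9 and 392.8, log2 fold change -7.23, adjusted p = 0.00132), the potassium channel subunit Kcnab1 (2.83, 1.15 and 2.79 against 199.4, 152.9 and 241.5, -6.92, adjusted p = 0.00132), the large-conductance calcium-activated channel Kcnma1 (-7.78, adjusted p = 0.0328) and the voltage-gated Kcna5 (-2.74, adjusted p = 0.042). Kcnma1 was low even in SMC, at 23.9, 20.0 and 19.7 counts against 0.0319, 0.311 and 0.111, and its call was lost with the line as a block (adjusted p = 0.0706). Kcna5 stayed measurable in pericytes, at 26.8, 49.6 and 24.3 counts against 166.5, 292.2 and 350.8.

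**Figure D3:**
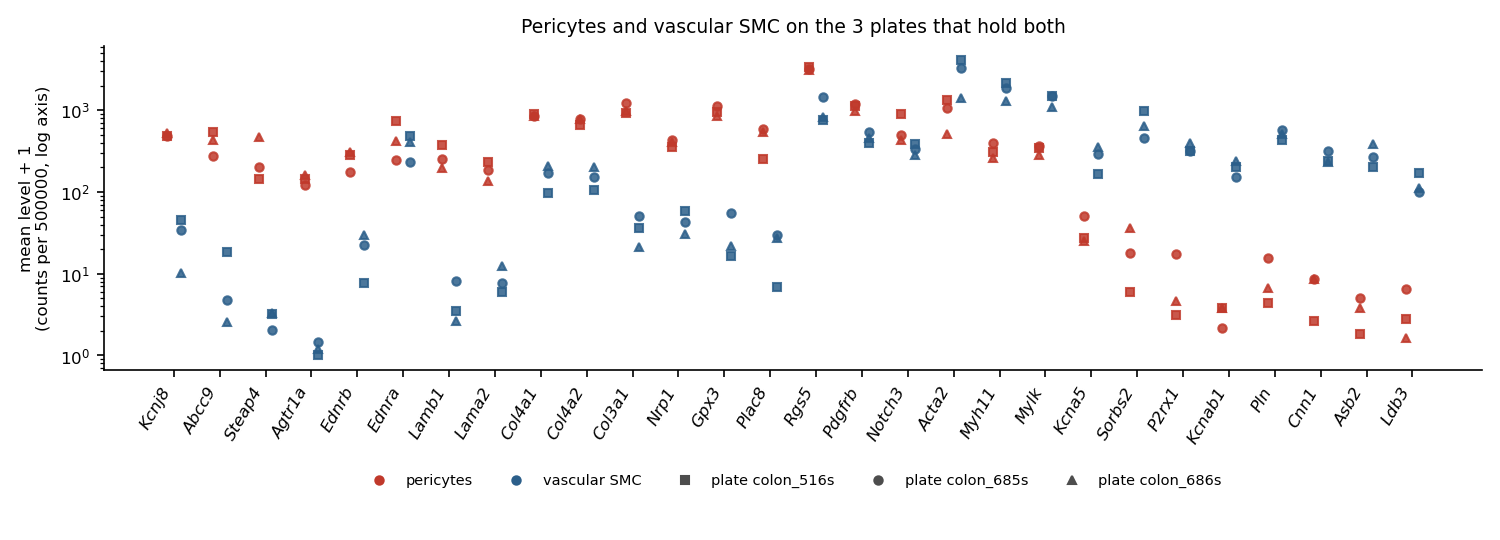
Mean level + 1 of named genes (counts per 500000, log axis) in pericytes and vascular SMC, a point for each of plates colon_516s, colon_685s and colon_686s. Kcnj8, Abcc9, Lamb1, Steap4 and Agtr1a are higher in pericytes and Cnn1, Pln, Asb2, P2rx1 and Kcnab1 lower, with no overlap between the classes for these genes, while the plates of Ednra lie together.

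Receptors for vasoactive peptides differed for individual members. Of 33 vasoactive receptors tested 2 were higher in pericytes and 0 lower, with a median log2 fold change of 0.36. Agtr1a, the angiotensin II type 1a receptor, had 143.2, 121.6 and 159.7 counts in pericytes and 0, 0.447 and 0.195 in vascular SMC (7.01 ± 1.26, adjusted p = 0.0385). The endothelin B receptor Ednrb had 279.4, 174.01 and 311.3 counts against 6.69, 21.5 and 29.1 (4.38 ± 0.62, adjusted p = 0.0147, and 0.0583 with plates and the plate as a block). The endothelin A receptor Ednra did not pass the test, at 749, 248.4 and 424.3 counts against 478.3, 232.1 and 410 (0.37 ± 0.47, adjusted p = 0.932), and was highest on colon_516s in both classes. Soluble guanylyl cyclase, the nitric oxide receptor, was made by both classes: Gucy1b1 had 511, 592 and 604 counts against 255.1, 481.9 and 459.1 (0.60, adjusted p = 0.651) and Gucy1a1 841, 529 and 550.1 counts against 722, 424.5 and 435.9.

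Among growth factor genes, the TGF-β co-receptor Eng (291.6, 290.9 and 222.1 counts against 41.1, 79 and 70, log2 fold change 2.58, adjusted p = 0.0328) and the VEGF and semaphorin co-receptor Nrp1 (359.1, 431.1 and 402.8 against 57.2, 41.7 and 29.5, 2.84, adjusted p = 0.0432) were the 2 higher of 36 genes of the PDGF, VEGF, angiopoietin and TGF-β list, of which 0 were lower and whose median was 0.78. Of 27 growth factors and chemokines 1 was higher, the chemokine Cxcl14 (64, 69.4 and 90.6 counts against 0.934, 1.42 and 2.06, 5.81, adjusted p = 0.0432, and 0.118 once lines were blocked). Of the 2 that were lower, Fgf1 had 7.15, 28.4 and 13.4 counts against 148.3, 145.6 and 180.3 (-4.12, adjusted p = 0.0299), and the list's median was 0.79. In the Notch list 1 of 13 genes was higher, the ligand Dll4 (49.1, 29.1 and 7.17 against 0.507, 2.65 and 0.0413, 7.83, adjusted p = 0.049, and 0.117 with the block), and 1 was lower, the feedback regulator Nrarp (11.3, 12.9 and 1.26 against 73.1, 55.8 and 107.6, -3.81, adjusted p = 0.0299), with a median of -0.10. With plates and the plate as a block neither Notch call remained (adjusted p of 0.102 for Dll4 and 0.109 for Nrarp).

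Some matrix genes were higher in pericytes than in vascular SMC. Of 25 basement membrane genes 4 were higher and 0 lower (median 0.93), namely Lamb1, Lama2, Col4a1 and Col4a2. Lama2, the laminin α2 chain, had 230.9, 184.7 and 136.8 counts against 4.95, 6.61 and 11.5 (4.36, adjusted p = 0.0143). Col4a1 and Col4a2, the chains of the main collagen IV network, had 911, 851 and 849.7 counts against 95.4, 170.8 and 204.4 (2.46, adjusted p = 0.0299) and 664, 784 and 771 against 104.8, 151.3 and 200.2 (2.37, adjusted p = 0.0412). They start 21 bases apart on opposite strands of chromosome 8, and the pericyte levels of each varied little between plates. Of 29 interstitial matrix genes 3 were higher and 0 lower (median 1.44). Col3a1 had 923, 1233 and 988 counts against 35.6, 50.1 and 20.1 (3.41, adjusted p = 0.0427), Col5a2 177.5, 209.6 and 138.4 against 10.3, 21.9 and 9.21 (3.71, adjusted p = 0.0146), and Col6a3 260.1, 238.9 and 207.3 against 30.4, 89.1 and 34.4 (2.36, adjusted p = 0.0450, and 0.0538 with the block).

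Fibroblast markers had positive values as well. The 12 fibroblast markers were all positive against vascular SMC, with a median log2 fold change of 1.54, and 0 of them were called. Their summed level had medians of 641, 1835 and 1501 in pericytes of colon_516s, colon_685s and colon_686s, 276.1, 514 and 289.6 in vascular SMC and 13568, 14601 and 8658 in fibroblasts. The part of fibroblast RNA in the matrix levels of pericytes was not tested. For Col4a1 the mean of fibroblasts (244.9, 482.6 and 552) was itself below that of pericytes on each plate, whereas for Col3a1 it was above (2047, 3071 and 1699.7).

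Adhesion receptors and other genes added to the differences. Of 14 integrins 0 were higher and 2 lower in pericytes (median -0.25), Itga8, the α8 subunit (6.95, 3.02 and 12.4 counts against 146.2, 59.9 and 172.3, -4.78, adjusted p = 0.00872), and Itga3 (0.735, 0.106 and 0.350 against 54.1, 15 and 32.1, -7.61, adjusted p = 0.0299). Of 25 junction and adhesion genes 1 was lower, the cadherin gene Cdh6 (-8.04, adjusted p = 0.0115), and 0 were higher (median 0.20). The remaining genes named on the pericyte side by size of change were Plac8 (4.34), Gpx3 (4.28), the secreted glutathione peroxidase with 942, 1119 and 842 counts against 15.5, 53.8 and 20.6, Ly6e (3.91), Lgals9 (3.56), the galectin-9 gene, and Ifitm1 (3.21), an interferon-induced membrane protein. No transcription factor of 35 tested was called (median -0.09), nor was any of 15 hypoxia and respiratory chain genes (median -0.71).

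Some immediate early genes, which respond within minutes to tissue dissociation, were lower in pericytes. Of 16 such genes 4 were lower and 0 higher against vascular SMC (median -2.05), namely Atf3 (-3.71, adjusted p = 0.0621 with plates and the plate as a block), Fosb (-3.71), Zfp36 (-2.55) and Ier2 (-2.24). Their summed level had medians of 1345, 1161 and 1382 in pericytes and 13324, 6796 and 7477 in vascular SMC of the same plates. The part of this response in the other differences between the mural classes was not tested. Markers of other cell types were also summed, and the study had removed cells with signatures of endothelial or immune cells before deposit. The 12 endothelial markers had median sums of 474.3, 398.6 and 330.4 in pericytes, 307.7, 353.2 and 342.7 in vascular SMC and 48.3, 39.5 and 13.8 in fibroblasts of the 3 plates. Most of the pericyte sum was Esam, with means of 542, 482.5 and 348.2, and the other 11 genes had means of 0 to 67.9, the highest being Tie1 on colon_516s. Of the defining endothelial genes, Pecam1 was at 10.4, 12.6 and 2.57 counts and Cdh5, the endothelial cadherin, at 0.580, 1.35 and 0.355. The summed immune markers had medians of 20.7, 0 and 0 in pericytes, the epithelial ones 7.26, 39.5 and 2.17 and the glial and neuronal ones 3.16, 0 and 0. The glial and neuronal sum reached 1232 in a pericyte of colon_686s. At least 100 raw counts of a member were seen in 7 pericytes (4.93%), 5 of them on colon_686s, the deepest of the 3 plates, against 0 vascular SMC. Of the 11 endothelial, 6 immune, 6 epithelial and 2 glial markers tested against vascular SMC, 0 were called.

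Of the 48 called genes named here, 25 no longer passed without the Acta2GFP line, with adjusted p between 0.052 and 0.23. They were Rgs5 (0.230), Art3 (0.052), Ednrb (0.057), Col4a1 (0.120), Col4a2 (0.150), Col6a3 (0.141), Nrp1 (0.129), Eng (0.128), Cxcl14, Dll4, Plac8, Ly6e, Itga3, Kcnma1, Kcna5, Fgf1, Nrarp, Ppp1r12a, Dstn, Myh11 (0.0685), Mylk (0.119), Atf3, Fosb, Zfp36 and Ier2. Without Cspg4dsRED, 2 were lost, Col6a3 (0.0603) and Dll4 (0.153), and without PdgfrbGFP 4, Nrarp (0.0674), Kcna5 (0.152), Ier2 (0.055) and Cxcl14 (0.0674). None of the 48 changed sign under any alternative run. In 1 fit over all 8 clusters 22 of the 48 were lost, among them Rgs5 (adjusted p = 0.595), Kcnj8 (0.145) and Abcc9 (0.0787), and with lines of at least 3 cells in the sums, which admits 3 Acta2GFP pericytes, 22 of the 47 tested were lost, among them Kcnj8 (0.105). Steap4, Agtr1a, Pln and Susd5 passed in all 12 alternatives.

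Against fibroblasts of 4 lines, 1.54% of 19861 genes were higher in pericytes and 1.6% lower at an adjusted p under 0.05, around a median log2 fold change over all genes of -0.17. Of these 623 genes 580 had the same direction on all 3 plates. The shares and the median over all genes are the background of each list count against fibroblasts below. Of 20 mural surface and pericyte genes 13 were higher and 1 lower (median 3.88). Notch3 had 900, 500 and 433.97 counts in pericytes and 1.29, 1.65 and 1.61 in fibroblasts (9.46 ± 1.48, adjusted p = 0.0166), and Higd1b, a mitochondrial protein gene, had 45.8, 40.3 and 90.7 against 0.354, 0.0865 and 0.152 (10.75, adjusted p = 0.00408). Pdgfrb, which fibroblasts also make at 177.3, 143.04 and 161.6 counts, had a smaller log2 fold change of 2.59 ± 0.32 (adjusted p = 0.00767). Cells were kept only with Pdgfra or Pdgfrb, and the median pericyte had 0 counts of Pdgfra. The value for Pdgfrb is therefore in part set by how the cells were selected. Mcam, the adhesion molecule CD146 (7.90), Rgs4 (7.85), Vtn (7.21), Ndufa4l2 (6.58), Des, the muscle filament desmin (4.16), Gucy1b1 (3.89) and Gucy1a1 (2.56) were higher as well. Cspg4 was not called (800.4, 232.8 and 201.7 counts against 65.6, 6.42 and 5.05, 3.88, adjusted p = 0.0575), nor was Ebf1 (168.8, 331.03 and 465.2 against 87.4, 80.1 and 90.3).

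Some contractile genes were higher in pericytes than in fibroblasts. Of 24 contractile genes 10 were higher and 0 lower (median 2.14). Acta2 was at 161.5, 227.97 and 84.5 counts in fibroblasts (log2 fold change 2.85, adjusted p = 0.00863), Tagln at 14.4, 33.2 and 20.2 (4.58, adjusted p = 0.00244), Myh11 at 23.3, 10.0 and 3.86 (4.64, adjusted p = 0.00578), and Lmod1, encoding leiomodin, and the myosin light chain Myl9 were higher by 7.02 and 3.38. Cnn1 was low in both classes, at 2.26, 1.35 and 1.34 counts in fibroblasts, and was not called. Of 33 genes for cGMP, cAMP and RGS signalling 17 were higher and 1 lower (median 2.14), the small GTPase Rasl12 among them (7.28). Of 23 ion channels 7 were higher and 0 lower (median 2.74), among them the chloride channel Ano1 at 447.2, 127.5 and 127.6 against 37.1, 12.3 and 0.496 (3.62, adjusted p = 0.0159).

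Signalling genes between vessel and pericyte followed. Of 17 Notch genes 5 were higher and 0 lower (median 1.88), including the targets Heyl (460.1, 149.9 and 111.8 counts against 44.4, 20.6 and 27.4, 3.87) and Hey2 (29.7, 32.8 and 12.9 against 0, 0.150 and 0.124, 8.63, adjusted p = 0.0208, and 0.0888 with the block). Angpt2, the angiopoietin that antagonises TIE2, had 245.3, 195.1 and 197.9 counts against 2.81, 1.30 and 0.589 (7.08, adjusted p = 0.00767). Pdgfa was higher (3.71, adjusted p = 0.00767, and 0.0690 with the block) and the BMP ligands Bmp7 and Bmp4 lower (-6.44 and -3.27), and over their list of 37 genes 4 were higher and 3 lower with a median of -0.63. Of 32 growth factors and chemokines 1 was higher, the KIT ligand gene Kitl (2.72, adjusted p = 0.0127, and 0.0754 with the block), and 3 were lower, Cxcl12 (-1.69) among them. Of 39 vasoactive receptors 4 were higher and 2 lower (median -0.22), with the α2A adrenergic receptor Adra2a at 54, 96.8 and 114.3 counts against 0.121, 0.356 and 0.102 (10.44, adjusted p = 0.0107) and Ednra at 1.93 (adjusted p = 0.0278, and 0.0735 with the block). The odorant receptor gene Olfr558 was also among the largest differences, at 219.7, 326.1 and 361.5 counts against 2.13, 1.54 and 1.52 (9.31), and had 286.8, 320.6 and 389.04 counts in vascular SMC.

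Against fibroblasts the called interstitial matrix genes were lower in pericytes. Of 29 interstitial matrix genes 15 were lower and 0 higher (median -2.07), Col1a1 at 464.5, 499.6 and 242.2 counts in pericytes against 1533, 2566 and 1533 in fibroblasts (-2.46, adjusted p = 0.00244), Col1a2 (-2.07) and Col3a1 (-1.37) among them. The small proteoglycan gene Lum (-3.45), the fibulin gene Fbln1 (-3.68), Dpt, encoding dermatopontin (-3.83), and the protease gene Htra3 (-4.65) were lower by more, as were 6 of the 12 fibroblast markers (median -3.73), 0 of which were higher. Basement membrane genes were divided, 3 of 29 higher and 4 lower (median -0.36). The higher ones included Tinagl1 (7.61) and Col4a2 (1.30, adjusted p = 0.0441, and 0.118 with the block), and the lower ones Fn1, encoding fibronectin (-3.13), and Col15a1 (-3.25, adjusted p = 0.0143, and 0.0755 with the block). Of the collagen genes called in both comparisons, Col3a1 and Col6a3 lay above vascular SMC and below fibroblasts (Col6a3 by -1.27 against fibroblasts), and Col4a2 above both.

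Of 17 integrins 3 were higher and 1 lower (median -0.36), Itga1, a collagen receptor subunit (419.4, 157.6 and 251.3 counts against 23.4, 10.8 and 4.88, 3.96), and Itga7, a laminin receptor subunit (5.78), among the higher. Of 29 junction and adhesion genes 4 were higher and 2 lower (median -0.94), including the connexin gene Gja4 (326.8, 290.6 and 261.7 against 5.86, 3.73 and 0.924, 7.79) and N-cadherin, Cdh2 (7.99). Esam, on the endothelial list because endothelium makes it, was higher at 542, 482.5 and 348.2 against 1.2, 11.2 and 2.32 (7.66) and had 331.5, 386.4 and 359.4 counts in vascular SMC. Of 43 transcription factors 7 were higher and 3 lower (median 0.10), among them Nr2f2, encoding the venous factor COUP-TFII (344.6, 274.8 and 305.7 against 21.4, 15 and 18, 4.05), Mef2c (4.73), the hypoxia-inducible factor Epas1 (3.29) and Ebf2 (3.6, adjusted p = 0.0148, and 0.167 with the block). Of 16 hypoxia and respiratory chain genes 3 were higher and 0 lower, Higd1b, Ndufa4l2 and Epas1. The list's median of -0.17 was that of all genes, of which 1.54% were higher. Of the dissociation list 1 of 16 was lower and 0 higher (median -0.47), and 0 of 12 cell cycle genes were called.

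The fibroblast counts depend more on the replicate structure. With the line as a block 78 genes were higher and 94 lower, 24.7% of the 623 kept their call, and of the 53 called genes named here 8 no longer passed (Col15a1, Steap4, Pdgfa, Col4a2, Ednra, Hey2, Kitl and Ebf2, adjusted p between 0.069 and 0.17). Without Cspg4dsRED 10 of the 53 were lost (0.0526 to 0.0849), without PdgfrbGFP 12 (0.0501 to 0.168), without Acta2GFP 22 (0.05 to 0.142) and without PdgfraGFP 5 (0.0508 to 0.0643). Notch3 was lost without Cspg4dsRED (0.0632), PdgfrbGFP (0.0558) or Acta2GFP (0.0557), Col3a1 without PdgfrbGFP (0.0501) or Acta2GFP (0.0691), and Rgs5, Kcnj8, Abcc9 and Art3 under none of these. With plates in place of lines and the plate as a block, 18 of the 53 were lost, namely Abcc9 (0.0629), Col3a1 (0.077), Fn1 (0.0895), Dpt (0.0739), Htra3 (0.0691), Lum (0.127), Fbln1 (0.085), Heyl (0.0989), Bmp4 (0.138), Cxcl12 (0.0757), Ano1 (0.101), Steap4 (0.105), Pdgfa, Col4a2, Ednra, Hey2, Kitl and Ebf2. None of the 53 changed sign.

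Interstitial SMC could be compared by value only, since Acta2GFP alone held at least 10 of them and held 3 pericytes. Their levels in that line were 128.1 for Rgs5, 0.229 for Notch3, 985 for Cnn1, 5114 for Acta2 and 2.55 for Pln. Pericytes had means over lines of 3262, 706, 4.36, 1047 and 6.47. The line and the class cannot be told apart in these pairs.

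Pericytes of the Cspg4dsRED plate were set against those of both PdgfrbGFP plates. Among 637 genes with at least 100 counts in 30% of pericytes of colon_685s and colon_686s, 23 (3.61%) were at least 4-fold lower on colon_516s in mean level than on either, and among the genes considered in the same way on colon_516s 1 (0.602%) was at least 4-fold higher. By medians over cells the shares were 19.8% lower and 8.43% higher. Genes entered each side through the plates where they reached 100 counts, and colon_516s was the shallowest of the 3, so fewer genes could enter on its side and the sides are not compared. There is 1 plate of Cspg4dsRED, so line and plate cannot be told apart, and no test was made. Among the largest on the lower side were AW112010, Gbp2, Irgm2, Iigp1, Gm28177, Irgm1, Tgtp2, Gbp3 and Irf1, most of which are known as interferon-inducible genes. Gbp2, a guanylate-binding protein gene, had 15.5, 599 and 569.7 counts on colon_516s, colon_685s and colon_686s, Iigp1, an immunity-related GTPase gene, 19.1, 602 and 625, and the transcription factor Irf1 37.8, 366.7 and 330.6.

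**Figure D4:**
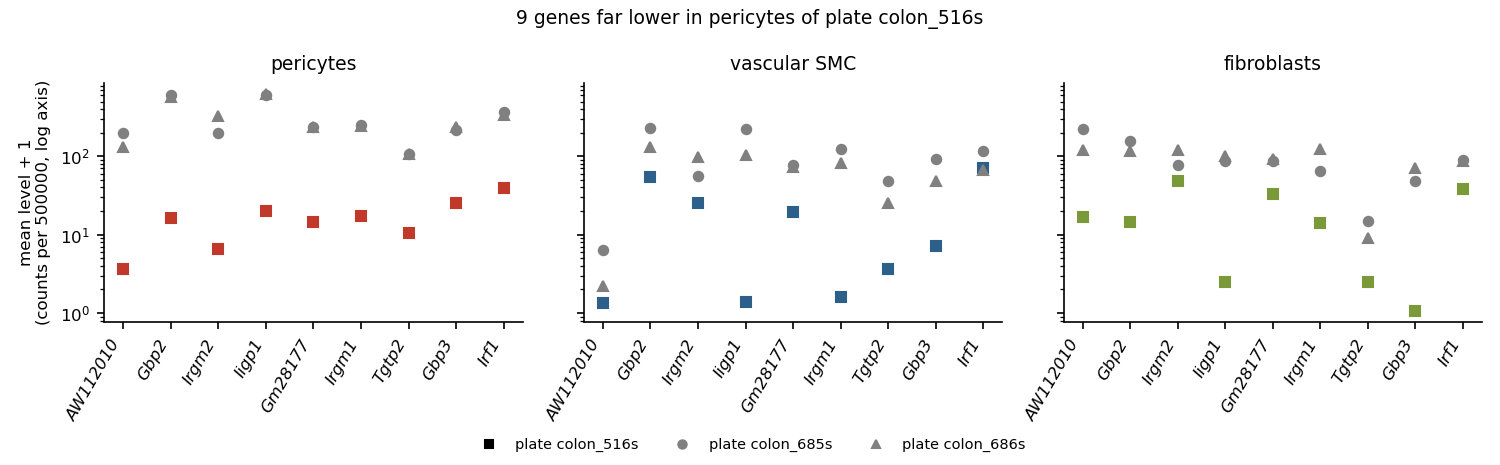
Mean level + 1 (counts per 500000, log axis) of the 9 genes named above in pericytes, vascular SMC and fibroblasts, a point for each of plates colon_516s (coloured square), colon_685s (grey circle) and colon_686s (grey triangle). In pericytes the square lies lowest by the choice of the genes, and it also lies lowest for each of the 9 in fibroblasts and for all but Irf1 in vascular SMC (70.9 on colon_516s against 66.2 on colon_686s).

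The 9 genes were chosen for high levels in pericytes of colon_685s and colon_686s and low levels on colon_516s, so the order of these 3 plates in pericytes is fixed by the choice. Their summed level per cell had a median of 70.2 in the 5 pericytes of plate colon_075s and 38.1 in those of colon_516s, against 1013 on colon_685s and 1099 on colon_686s. In pericytes of colon_685s the sum ranged from 33.5 to 14435 and on colon_686s from 14.1 to 12402, so it was widely spread over cells. Fibroblasts were also lower on colon_516s (123.8) and on colon_073s (222.2) and colon_075s (191.7) than on colon_685s (471.1) and colon_686s (464.3), and on the 4 plates of Acta2GFP and PdgfraGFP their medians lay between 163.9 and 845. Vascular SMC had medians of 23.1, 210.9 and 188.7 on colon_516s, colon_685s and colon_686s, 81.9 and 110.03 on the Acta2GFP plates colon_513s and colon_682s, and 467.5 in the 7 cells of colon_073s, so in this class colon_073s was the highest of the 6 plates.

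On the higher side, genes next to Cspg4 on chromosome 9 stood out. Snx33, a sorting nexin gene, was the gene at least 4-fold higher, with 678 counts in pericytes of colon_516s against 32.1 and 32.3 on colon_685s and colon_686s, and Cspg4 (800.4 against 232.8 and 201.7) and Imp3, encoding a ribosomal RNA processing protein (446.1 against 131.7 and 114.3), were among the 10 with the largest ratios. In GRCm38 the order along the chromosome is Odf3l1 (56848659 to 56864679), Cspg4 (56865033 to 56899870), Snx33 (56917193 to 56928371), Imp3 (56937475 to 56938398), Snupn (56950878 to 56983206) and Ptpn9 (from 56994923). These neighbours were looked up after the values of Snx33 and Imp3 had been seen.

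**Figure D5:**
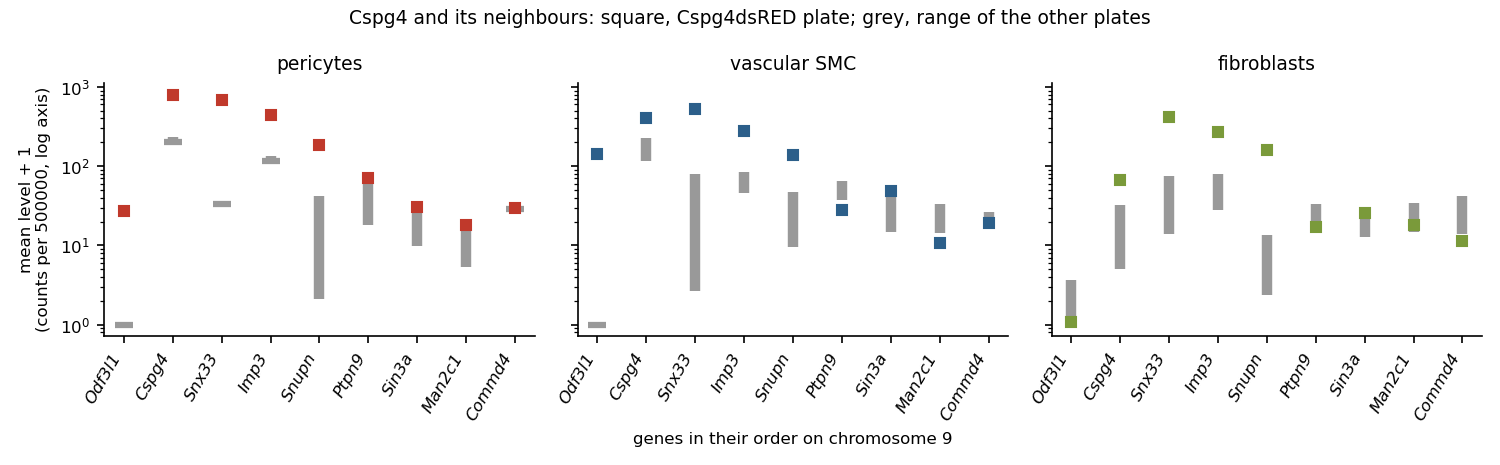
Mean level + 1 (counts per 500000, log axis) of genes in chromosomal order around Cspg4 in pericytes, vascular SMC and fibroblasts, the square being plate colon_516s (Cspg4dsRED) and the bar the range of the other plates. Snx33, Imp3 and Snupn on colon_516s lie above the other plates in each class, whereas Ptpn9 and the genes after it (Sin3a, Man2c1 and Commd4) lie within or near their range.

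The shift was shared by the other classes of the plate. Snx33 was at 525 counts in vascular SMC of colon_516s against 1.65 to 77.8 on 4 other plates, and at 414.9 in fibroblasts against 13 to 73.3 on 8 other plates. Imp3 was at 275.96 and 272.2 in these classes against 44.8 to 83.4 and 26.6 to 78.6, and Snupn, encoding snurportin, at 182.9, 137.4 and 157.3 in pericytes, SMC and fibroblasts against 1.11 to 41.2, 8.61 to 46.5 and 1.39 to 12.4. Odf3l1 differed by class, at 26.5 in pericytes and 142.4 in vascular SMC of colon_516s, where all other plates had 0, and 0.0916 in fibroblasts, within the range of 0 to 2.66. Ptpn9 was at 69.4 in pericytes against 17.1 to 63.3 and at 26.8 in vascular SMC against 35.9 to 64.8. Cspg4 itself was at 65.6 in fibroblasts of colon_516s against 4.00 to 31.1. The line of this plate carries a DsRed transgene under Cspg4, what flanking sequence the construct holds is not given in the sources used here, and its part in the counts of Cspg4 and its neighbours was not tested. The levels and the fold change of Cspg4 above include this plate.

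For genes with at least 100 counts in 30% of pericytes, the coefficient of variation over cells was taken within each plate. The least variable was Igfbp7, a secreted IGF-binding protein gene, at 0.380, 0.353 and 0.425, followed by Eef1a1 and Sparc. The 10 most variable by the lowest of the 3 plate values were Col1a1 (1.69, 1.89 and 1.74), Dusp1, Lgmn, Ndufs7, Lamb1 (1.54, 1.43 and 1.47), Idh3g, Grn, Cxcl12, Tmem109 and Plekha2, which mixes matrix, lysosomal and mitochondrial genes. On colon_516s alone Ndufs7 (3.35) and Idh3g (3.05) lay above Col1a1. All 10 were near the detection limit, with 100 counts in 30.3% to 35.2% of pericytes. Col1a1 ranged from 0 to 4023 counts per cell with a median of 37.5, and Lamb1 from 0 to 2463 with a median of 61.3, so the means of both rest on a minority of pericytes.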

How the data were processed

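The authors sorted single cells into plates, made SmartSeq2 libraries, trimmed adapters, aligned reads to GRCm38 (mm10) with TopHat2 and Bowtie, and counted reads per gene with featureCounts. The deposited table holds these raw read counts for 46517 genes and 92 spike-in RNAs, which took 1.36% of all counts, and whether the counting used strand is not given in the sources used here. Before deposit the authors removed shallow cells, cells with very many detected genes as likely doublets, and cells without Pdgfra or Pdgfrb, so no doublet caller was run here. Cells held 47598 to 1494292 counts on genes, and 11 cells, 2 of them pericytes, were below the 50000 counts used for thinning. Reads carry no molecular identifiers. The intervals on shares of cells cover the counting of cells only. No 2 cells had identical columns.

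Clusters were taken from the labels and not redrawn. They gave 142 pericytes of 1646 cells and 141 vascular SMC, and the edgeR test called 107 genes against vascular SMC and 305 and 318 (higher and lower) against fibroblasts. Plates are named as in the cell titles. Raw counts were summed per reporter line for lines with at least 10 cells of a class, spike-ins left out, and tested with edgeR 4.0.16 (quasi-likelihood test, TMM, filterByExpr) in R 4.3.3, with Benjamini-Hochberg adjustment over all genes tested and a threshold of 0.05. No test was run at the level of cells, which are not replicates. The study's own test took cells as replicates, and the line was used here because the labels name no larger unit. DESeq2 1.42.0, limma 3.58.1 on means per cell, no filter, plates in place of lines, the line or plate as a block, lines with at least 3 cells, a fit over all 8 clusters, thinned cells and leaving out each line were alternatives. Pericytes and the other class shared 2 lines, and the correlation of deviations from the class means was 0.168 and 0.179 against vascular SMC and 0.143 and 0.133 against fibroblasts, while by plate it was 0.0919 to 0.116, so line-blocked values stand beside the calls they change, and calls lost with the plate as a block are listed.

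Genes named were the 5 markers, for each comparison and direction the 10 largest log2 fold changes among called genes whose sign was the same on each plate and which reached 100 counts in 30% or more of the higher class, called members of the lists, the most abundant uncalled members, and the extremes by plate and by cell. Dll4, Nrarp, Snupn, Odf3l1 and Ptpn9 were singled out by list or by position. The pericyte class, its markers and all gene lists were chosen with earlier results of these data known. Gene positions come from GENCODE vM21 (GRCm38), which held 46005 of the gene names, and upstream sequences from RefSeq. Values of 3 genes are not reported here, and they were left out of the named genes and of the summed level of the genes lower on plate colon_516s.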

Additional observations from a re-analysis of the deposited data

How the results depend on the processing

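None of the 48 and 53 called genes named above changed direction under any alternative. Against vascular SMC, 0.298% of the genes tested were higher and 0.48% lower, and these shares became 2.81% and 3.74% with DESeq2, 0.925% and 1.05% without the filter on low counts, 0.407% and 0.771% with the line as a replicate block, 1.15% and 1.49% with plates in place of lines, 0.607% and 1.0017% with plates and the plate as a block, 0.21% and 0.259% with at least 3 cells per sum, 0.678% and 1.27% with limma, 0.621% and 0.198% with all 8 clusters in 1 fit, and 0.613% and 0.971% with thinned cells. Leaving out a line gave 0.136% to 0.993% higher and 0.163% to 1.4% lower, both lowest without Acta2GFP. Against fibroblasts, 1.54% and 1.6% became 6.65% and 11.03% with DESeq2, 0.393% and 0.473% with the line block, 4.38% and 5.89% with plates, 0.437% and 0.239% with plates and the plate block, 4.25% and 6.33% with limma, 5.43% and 1.28% with all 8 clusters, and 3.31% and 3.998% with thinned cells, and the counts stayed within 1.5 times without the filter and with at least 3 cells per sum, where 6 called genes that are not named here changed sign. Leaving out a line gave 0.548% to 2.03% higher and 0.24% to 3.25% lower. Of the genes called against vascular SMC, 77.6% kept the call with the line block, 43% with at least 3 cells per sum, 46.7% with all 8 clusters and 36.4% without Acta2GFP. Of 623 against fibroblasts, 24.7% kept it with the line block, 17.8% with plates and the plate block, 22.2% without Acta2GFP and 40.8% without PdgfrbGFP. The cause of these shifts was not tested.

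With cells of at least 100000 counts the share of pericytes on plate colon_513s fell from 0.772% to 0%, since neither of its 2 pericytes reached that depth. The log2 ratio of counts per cell between pericytes and vascular SMC was -0.52 by means in place of -0.63 by medians. The log2 ratio of the contractile sum was 2.47 with 7 markers in place of 1.65 with 24 genes. Taken by medians over cells, 8.43% of the genes considered were at least 4-fold higher and 19.8% at least 4-fold lower on plate colon_516s, in place of 0.602% and 3.61%.

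The pericytes in the tests came from 2 lines, 1 of them a single plate. Against vascular SMC 1449 genes had an unadjusted p under 0.05 and 41 higher and 66 lower genes passed adjustment, and a gene that did not pass is not shown to be equal. The classes were drawn from the same counts, and the labels name no mouse.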
